A study of Mus musculus with 12 samples.

Results

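Transcripts that mark fibroblasts, endothelium, smooth muscle, fat cells and Schwann cells were followed in separated mouse oesophageal epithelium. They give an approximate measure of the RNA in each library that does not come from keratinocytes. The 39 genes were taken from the gene count files by symbol, with earlier results of these data known, and stand among 23337 gene symbols. They comprise 12 fibroblast, 10 endothelial, 7 adipocyte, 4 Schwann cell and 6 smooth muscle genes. All 39 are in the files, 36 passed the filter on low counts, and Prox1, Plin1 and Lep did not.

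The series holds 12 libraries of polyA RNA, 3 from each of 4 groups of C57BL/6 mice aged 6 weeks. The active IKKβ group (ED/L2-Cre+; ROSA26-StopFL-Ikk2ca+/L) carries a constitutively active kinase of the NF-κB pathway, expressed once Cre removes a stop cassette. The Stat3 loss group (ED/L2-Cre+; Stat3L/L) loses the transcription factor Stat3 through the same Cre, and the combined group carries both changes (Stat3L/L with ROSA26-StopFL-Ikk2ca+/L and ED/L2-Cre+). Control mice carry both floxed alleles and no Cre (ROSA26-StopFL-Ikk2ca+/L; Stat3L/L). The ED/L2 promoter of Epstein-Barr virus drives Cre in squamous epithelium, so the stromal cells that the 39 genes mark are not those it targets. Some of these genes are not confined to such cells, such as Ngfr, which basal keratinocytes also carry. Cre itself separates Control from every other group. The labels give no record that the 3 libraries of a group are separate animals. Transcripts of females marked replicate 1 of every group and those of males replicates 2 and 3, so each group holds at least 2 animals, and p-values measure the spread between these libraries.

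The oesophageal wall places a stratified squamous epithelium over a lamina propria of fibroblasts, capillaries, lymphatics and fine nerves. Beneath it lie a muscularis mucosae of smooth muscle, a submucosa that can hold fat, and an outer muscle coat that in the mouse is largely skeletal. Fibroblasts build the collagen matrix, endothelial cells line the vessels, and Schwann cells sheathe the axons. Per the labels the epithelium was separated mechanically from the stroma before RNA was taken.

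Total counts per library ran between 14816468 and 30188363. Keratinocyte transcripts were abundant in every library. Krt4 and Krt13, made by the differentiated layers, took 4.05% to 13.9% of all counts, and Krt5 and Krt14, of the basal layer, ranged between 8669.9 and 16086 CPM and between 1765 and 3804 CPM. CPM is the count relative to the library total after TMM scaling. Stat3 lay at 139 to 154 CPM with Stat3 loss and at 157 to 179 CPM in Control, and it was not called by edgeR in any comparison (adjusted p = 0.788 between these groups). The deletion is targeted to epithelium, and reads over exons outside the deleted part do not check it. The 11 gastric genes found in the files stood apart in active IKKβ library 1, where they summed to 1708 CPM, and in Stat3 loss library 3, at 113 CPM, against at most 18.9 CPM in the other 10 libraries. Skeletal muscle genes summed to between 23.4 and 1829 CPM, and every group overlapped every other. In none of these lists, nor in those for leukocytes, pericytes, enteric neurons, melanocytes and keratinocytes, was a gene called by edgeR in any of 6 comparisons.

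The 39 genes together took between 0.216% and 0.621% of the counts of a library, with a median of 0.389%. Among the 32 with counts in every library, the highest library exceeded the lowest by a median of 5.17-fold, with 27 genes over 4-fold. Over all 13853 tested genes with counts in every library the same median was 1.93-fold, and 20.2% of genes were over 4-fold. Levels per kilobase take all annotated exons of a gene joined, so they compare genes only roughly. They were highest for the smooth muscle actin gene Acta2 at 191 CPM per kb and for Tagln at 178. The matrix gene Sparc stood at 83.2 and the collagen gene Col3a1 at 46.8 CPM per kb. Among endothelial genes Esam led with 6.88 CPM per kb, among adipocyte genes Cfd with 9.82, and among Schwann cell genes Mbp with 13.1. The lead of Cfd depends on the length used. Annotated exons of Fabp4 cover its whole gene, 4.489 kb, and without division by length Fabp4 averaged 15.3 CPM and Cfd 9.06 CPM. These levels are means of 12 libraries. That of Cfd rests largely on Control library 2, at 70.0 CPM, while its median library held 0.748 CPM and that of Fabp4 10.6 CPM.

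Members of a class were highest together in single libraries, and the library differed by class. All 6 smooth muscle genes and 7 of 10 endothelial genes were highest in active IKKβ library 3. Of the fibroblast genes 8 of 12, and of the adipocyte genes 6 of 7, were highest in Control library 2, while 3 of 4 Schwann cell genes were highest in Control library 3. Over all 14134 tested genes, 10.3% were highest in active IKKβ library 3, 8.65% in Control library 2 and 8.56% in Control library 3. In bulk RNA, fewer cells of a type and less RNA per cell cannot be told apart.

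**Figure D1:**
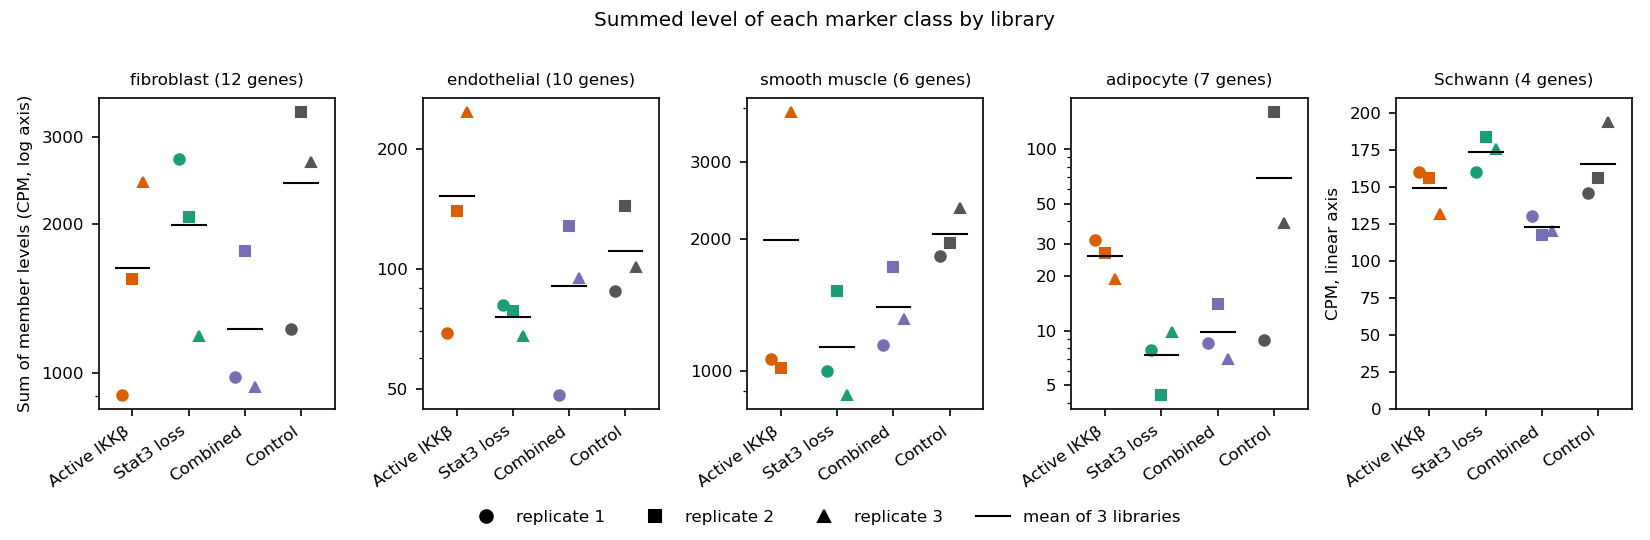
Summed level of each marker class in each library, in CPM, for active IKKβ, Stat3 loss, combined and Control libraries (log axes, except Schwann cells on a linear axis; marker shape gives the replicate, bars the mean of 3). Active IKKβ library 3 stands at 3911 CPM of smooth muscle genes and Control library 2 at 160.3 CPM of adipocyte genes, each far from the other libraries of its group.

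**Figure D2:**
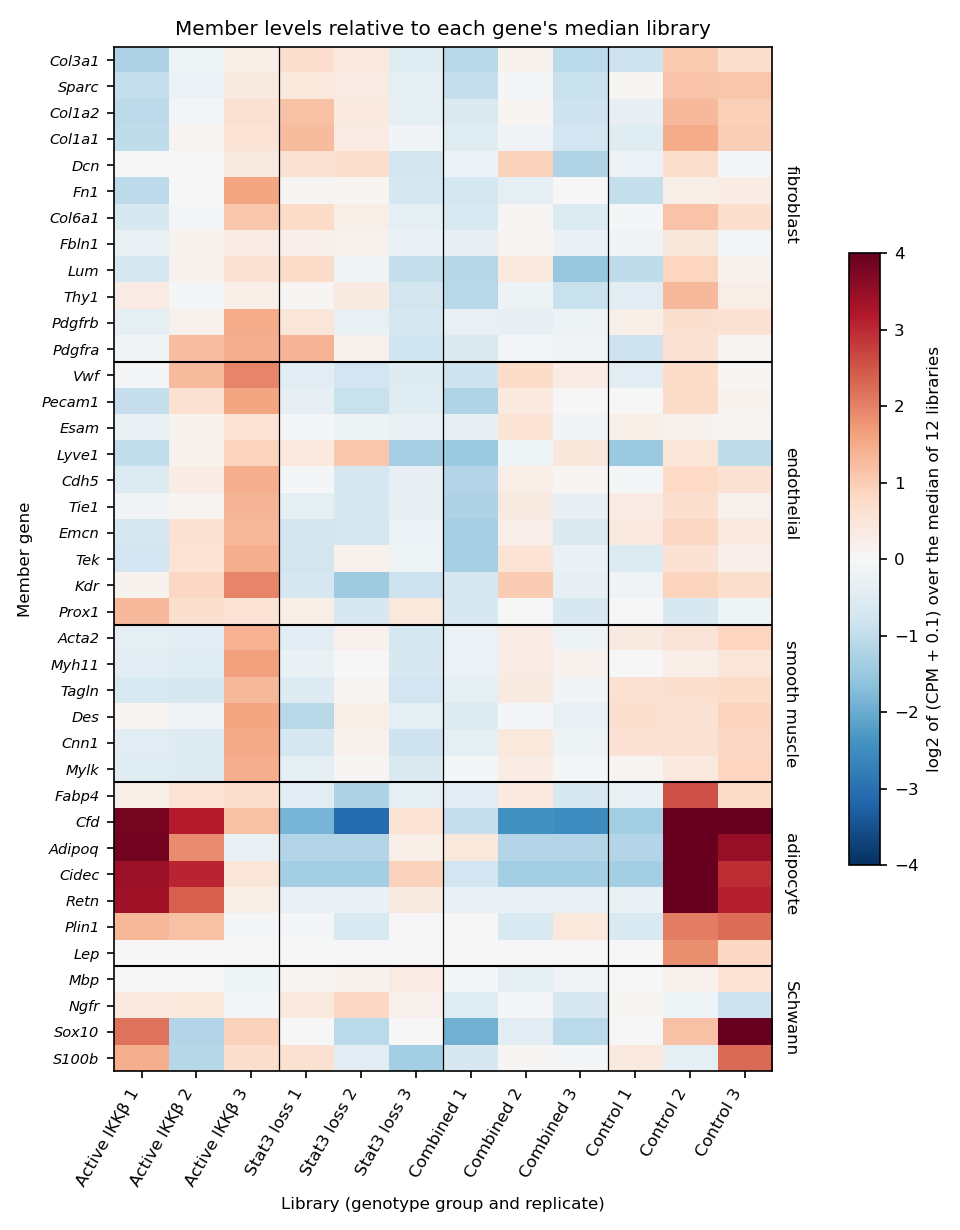
Level of each of the 39 genes in each library, as log2 of CPM plus 0.1 over the gene's median of 12 libraries, with colours saturating at 4 in size. Rows are genes by class and columns are libraries, active IKKβ at the left and Control at the right; classes light up together in single libraries, while Fbln1, Esam, Mbp and Ngfr stay pale.

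Promoters are shown for smooth muscle genes, whose levels moved together from library to library. RefSeq windows on GRCm38.p6 of 300 bases, 250 before and 50 after the start, were held for 23 of the 39 genes and for 4 of the 6 smooth muscle genes. They were searched on both strands for the CArG box, the motif read by serum response factor, which is known for its role in smooth muscle genes. The exact motif was in 0 of these 23 genes and in 1.63% of 32851 windows of all genes. After that result was seen, a search allowing 1 departure from the motif was added. It matched 7 of the 23 genes, where any window of a gene counted, and 19.9% of all windows, a share per window and not per gene. Of the smooth muscle genes it matched Acta2 alone, beginning 84 and 34 bases before the start, and those bases are in capitals below. Acta2 lies at chr19:34255324-34255623 on the minus strand, Cnn1 at chr9:22099003-22099302 on the plus strand and Des at chr1:75360042-75360341 on the plus strand; the windows of Cnn1 and Des are shown for comparison and hold no match. The TATAAA motif was in 0 of the 4 smooth muscle windows and in 13.6% of all windows. A match describes letters only.
Acta2: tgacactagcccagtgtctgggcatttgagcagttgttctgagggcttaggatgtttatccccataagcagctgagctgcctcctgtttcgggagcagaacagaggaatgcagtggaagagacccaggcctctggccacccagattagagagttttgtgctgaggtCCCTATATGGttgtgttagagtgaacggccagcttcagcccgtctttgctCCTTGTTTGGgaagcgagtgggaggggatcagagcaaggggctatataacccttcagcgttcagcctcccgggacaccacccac
Cnn1: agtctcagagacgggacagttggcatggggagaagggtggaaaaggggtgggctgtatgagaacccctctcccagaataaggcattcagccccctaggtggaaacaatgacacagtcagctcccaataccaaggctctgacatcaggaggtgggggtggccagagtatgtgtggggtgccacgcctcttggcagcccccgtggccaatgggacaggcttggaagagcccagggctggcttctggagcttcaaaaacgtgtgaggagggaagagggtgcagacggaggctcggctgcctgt
Des: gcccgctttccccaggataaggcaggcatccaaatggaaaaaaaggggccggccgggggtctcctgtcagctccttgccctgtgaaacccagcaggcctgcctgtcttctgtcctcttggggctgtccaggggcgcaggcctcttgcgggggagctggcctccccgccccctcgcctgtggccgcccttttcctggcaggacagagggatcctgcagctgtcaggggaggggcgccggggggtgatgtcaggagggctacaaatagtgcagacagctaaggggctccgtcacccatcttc

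Smooth muscle genes encode the contractile apparatus, and their sum was 1066, 1019 and 3911 CPM under active IKKβ, 1003, 1524 and 885 under Stat3 loss, 1148, 1732 and 1319 under the combination and 1835, 1967 and 2359 in Control. Active IKKβ library 3 stood at 3.75 times the mean of the other 2 libraries of its group, and every Stat3 loss and combined library lay below every Control library. Acta2 (mm10, chr19:34241090-34255590, minus strand), the smooth muscle actin, lay at 276, 264 and 932 CPM under active IKKβ, 263, 402 and 217 under Stat3 loss, 305, 448 and 311 under the combination and 461, 505 and 651 in Control. Myh11 (chr16:14194535-14291372, minus strand), the smooth muscle myosin heavy chain, lay at 256, 254 and 1113 CPM in active IKKβ, 297, 356 and 225 in Stat3 loss, 302, 445 and 391 in combined and 352, 426 and 497 in Control libraries. Both were highest in active IKKβ library 3, and Acta2 did not overlap between Stat3 loss and Control. Tagln (chr9:45929619-45936058, minus strand), an actin-binding protein of smooth muscle, lay at 202, 199 and 756 CPM in the active IKKβ libraries, 214, 331 and 181 in those of Stat3 loss, 239, 395 and 282 in the combined ones and 472, 473 and 512 in Control. Des (chr1:75360329-75368579, plus strand), the intermediate filament of muscle, lay at 163, 142 and 462 CPM under active IKKβ, 72.7, 186 and 122 under Stat3 loss, 106, 149 and 127 under the combination and 248, 231 and 287 in Control. For both Tagln and Des, every Stat3 loss and combined library lay below every Control library. Cnn1, the actin-binding calponin, ranged over 5.07-fold between libraries, and Mylk, the kinase that activates smooth muscle myosin, over 4.13-fold.

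Within a library the smooth muscle genes kept near-constant proportions. The ratio of Tagln to Acta2 counts ranged between 0.73 and 1.02, that of Cnn1 to Acta2 between 0.299 and 0.42, and that of Mylk to Acta2 between 0.236 and 0.32. Acta2 itself varied 4.29-fold over the same libraries. Myh11 to Acta2 spanned 0.763 to 1.26. Des to Acta2 varied more, between 0.276 and 0.591. Skeletal muscle also makes desmin. Acta1, the skeletal muscle actin, lay at 222, 148 and 17.3 CPM in active IKKβ, 5.63, 268 and 344 in Stat3 loss, 5.3, 68.1 and 9.79 in combined and 19.4, 56.2 and 1.22 in Control libraries. Stat3 loss library 3 was the highest for Acta1 and held 122 CPM of Des. Active IKKβ library 3, the highest for Des, held 17.3 CPM of Acta1. The ratio of Des to Acta2 was 0.591 in active IKKβ library 1, its highest, and 0.276 in Stat3 loss library 1, its lowest. In Stat3 loss libraries 2 and 3 it was 0.463 and 0.559, and in active IKKβ library 3 it was 0.496. What part skeletal muscle has in Des was not tested.

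Of 12 other smooth muscle genes, 11 were also highest in active IKKβ library 3, and 0 were called in any comparison. Actg2, the enteric smooth muscle actin, lay at 135, 126 and 539.6 CPM in the active IKKβ libraries, 111, 218 and 97.3 in those of Stat3 loss, 146, 248 and 145 in the combined ones and 249.5, 259 and 357 in Control. The highest of the 12 by CPM, Tpm2, a tropomyosin, spanned only 459 to 773 CPM, and Myl9, a myosin light chain, 114 to 433 CPM. Among pericyte genes Rgs5, a regulator of G protein signalling, was highest in that library at 40.5 CPM, and so was Cspg4, a proteoglycan of mural cells, at 38.7 CPM. Notch3, which oesophageal keratinocytes also express, was at 246 CPM there and at 122 to 250.0 CPM elsewhere.

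Fibroblast genes summed to 904, 1548 and 2431 CPM in active IKKβ, 2709.7, 2068 and 1189 in Stat3 loss, 982, 1765 and 936 in combined and 1225, 3378 and 2676 in Control libraries. The highest sum was in Control library 2 and the lowest in active IKKβ library 1, and Control overlapped every other group. Col3a1 (chr1:45311538-45349706, plus strand), a fibrillar collagen of loose connective tissue, lay at 188, 398 and 529 CPM under active IKKβ, 714, 581 and 316 under Stat3 loss, 205, 491 and 213 under the combination and 250.0, 921 and 707 in Control. Col1a2 (chr6:4504814-4541544, plus strand), a chain of type I collagen, lay at 107, 207 and 335 CPM in active IKKβ, 494, 287 and 167 in Stat3 loss, 145, 232 and 123 in combined and 174, 539.8 and 421 in Control libraries. For both, Control library 1 lay within the range of the combined libraries and far below Control libraries 2 and 3. Col1a1 (chr11:94936224-94953042, plus strand), the partner chain, lay at 91.7, 202 and 273 CPM in the active IKKβ libraries, 451, 236 and 171 in those of Stat3 loss, 134, 168 and 110.1 in the combined ones and 134, 526 and 373 in Control. Sparc (chr11:55394500-55423183, minus strand), a collagen-binding matrix protein that endothelium also makes, lay at 147, 238 and 360.1 CPM under active IKKβ, 381, 351 and 214 under Stat3 loss, 149, 271 and 152 under the combination and 292, 619 and 607 in Control. For Sparc the combined libraries all lay below the Control libraries, the lowest of which, at 292 CPM, lay below active IKKβ library 3 and Stat3 loss libraries 1 and 2.

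The 2 chains of type I collagen kept their proportion. The ratio of Col1a1 to Col1a2 counts spanned 0.726 to 1.03 over 12 libraries, a 1.42-fold range, while Col1a2 itself spanned 5.04-fold. The ratio of Dcn to Col1a1 spanned 0.385 to 1.67 and that of Fn1 to Col1a1 0.278 to 1.38. Dcn, a small proteoglycan that binds collagen fibrils, was highest in combined library 2 at 281 CPM. Fn1, fibronectin, was highest in active IKKβ library 3 at 376 CPM, as were Pdgfra and Pdgfrb, the receptors for platelet-derived growth factors that mark fibroblasts and mural cells. Lum, a proteoglycan, and Col6a1, a chain of type VI collagen, ranged over 5.27-fold and 3.41-fold. Thy1, a surface protein that mouse T cells also carry, ranged over 5.35-fold. Fbln1, the matrix glycoprotein fibulin, was the steadiest of the 32 genes with counts in every library, at 65.7 to 113 CPM.

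Among 18 other fibroblast genes, 14 were highest in Control library 2 and 0 were called in any comparison. Postn, the matrix protein periostin, lay at 72.2, 113 and 239 CPM in active IKKβ, 129.8, 178 and 88.6 in Stat3 loss, 87, 137 and 79.6 in combined and 102, 206 and 268 in Control libraries. Mmp2, a matrix protease, spanned only 75.8 to 147 CPM, and Col6a2, the partner of Col6a1, 41.5 to 175 CPM. Postn was highest in Control library 3, followed by active IKKβ library 3.

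Endothelial genes summed to 69.1, 140.0 and 249 CPM in the active IKKβ libraries, 81.4, 78.4 and 68.2 in those of Stat3 loss, 48.4, 129 and 94.9 in the combined ones and 88.4, 144 and 102 in Control. Active IKKβ library 3 was the highest and combined library 1 the lowest, and all 3 Stat3 loss libraries lay below all 3 of Control. Vwf (chr6:125546774-125686679, plus strand), the clotting factor stored in endothelium, lay at 15.6, 39.3 and 62.8 CPM in the active IKKβ libraries, 11.8, 9.49 and 11.3 in those of Stat3 loss, 9.11, 26.9 and 19.8 in the combined ones and 11.7, 27.2 and 16.7 in Control. Pecam1 (chr11:106654217-106750628, minus strand), an adhesion molecule of endothelial junctions, lay at 9.87, 29.2 and 56.6 CPM under active IKKβ, 15.2, 10.3 and 13.6 under Stat3 loss, 8.11, 25.1 and 18.7 under the combination and 19.2, 31.5 and 21 in Control. Stat3 loss libraries lay below Control for Pecam1 and overlapped it for Vwf. Esam (chr9:37528078-37538319, plus strand), another junction molecule, lay at 15.7, 20.7 and 27.5 CPM in active IKKβ, 18.5, 16.5 and 15.3 in Stat3 loss, 15, 27.6 and 17.4 in combined and 22.1, 21.1 and 19.3 in Control libraries. Its narrow range of 1.84-fold set it apart from Pecam1, which spanned 6.99-fold. Lyve1 (chr7:110850607-110863239, minus strand), the hyaluronan receptor of lymphatic endothelium that some macrophages share, lay at 5.1, 11.2 and 19 CPM in the active IKKβ libraries, 13.2, 21.5 and 3.93 in those of Stat3 loss, 3.55, 9.06 and 13.8 in the combined ones and 3.58, 14.2 and 4.91 in Control. It was highest in Stat3 loss library 2, and its groups overlapped.

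The ratio of Cdh5, the cadherin of endothelial junctions, to Pecam1 counts spanned 0.358 to 0.615 while Cdh5 itself lay between 3.7 and 23.6 CPM. By contrast the ratio of Lyve1 to Pecam1 spanned 0.186 to 2.09 and was highest in Stat3 loss library 2. Prox1, the transcription factor that specifies lymphatic endothelium, had 12 counts over the active IKKβ libraries, 4 over those of Stat3 loss, 1 over the combined ones and 2 over Control. Kdr, the main receptor for vascular endothelial growth factor, ranged over 11.9-fold with a maximum of 8.34 CPM. Tek and Tie1, receptors of the angiopoietin system, and Emcn, a sialomucin of capillaries and veins, ranged over 6.24-fold to 7.2-fold, all with their maximum in active IKKβ library 3. Of 15 other endothelial genes with counts, 8 were highest in that library and 0 were called. Eng, a co-receptor of transforming growth factor beta, and Plvap, a protein of fenestrated vessels, lay there at 53 and 55.3 CPM, above their range of 7.26 to 35.1 CPM in the other 11 libraries. Egfl7, a matrix protein secreted by endothelium, was highest in Control library 1 at 15.6 CPM.

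Adipocyte genes spread the most between libraries, with sums of 31.7, 26.6 and 19.2 CPM under active IKKβ, 7.79, 4.44 and 9.81 under Stat3 loss, 8.51, 14 and 6.96 under the combination and 8.89, 160.3 and 39.1 in Control. Control library 2 stood at 6.69 times the mean of the other 2 Control libraries, while Control library 1 lay within the range of the combined libraries. Fabp4 (chr3:10204088-10208576, minus strand), a fatty acid carrier that capillary endothelium also makes, lay at 12.5, 15.6 and 17 CPM under active IKKβ, 7.61, 4.44 and 8.02 under Stat3 loss, 7.86, 13.9 and 6.8 under the combination and 8.66, 64 and 17.7 in Control. Cfd (chr10:79890853-79892655, plus strand), the protease adipsin, lay at 12, 7.54 and 1.81 CPM in active IKKβ, 0.135, 0 and 1.15 in Stat3 loss, 0.35, 0.0581 and 0.0523 in combined and 0.224, 70.0 and 15.5 in Control libraries. Fabp4 was present in every library, whereas Cfd was at most 0.35 CPM in 6 of 12 and reached 70.0 CPM in Control library 2. Adipoq (chr16:23146536-23158028, plus strand), the hormone adiponectin, lay at 3.17, 0.725 and 0.086 CPM in the active IKKβ libraries, 0, 0 and 0.164 in those of Stat3 loss, 0.2, 0 and 0 in the combined ones and 0, 11 and 2.44 in Control. Cidec (chr6:113424634-113435760, minus strand), a lipid droplet protein, lay at 2.65, 1.98 and 0.258 CPM under active IKKβ, 0, 0 and 0.382 under Stat3 loss, 0.05, 0 and 0 under the combination and 0, 8.26 and 1.87 in Control. Both had 0 counts in Control library 1 and their maximum in Control library 2. Retn, the hormone resistin, followed them with 6.37 CPM in that library. Lep, leptin, had 7 counts, all in Control, and Plin1, a coat protein of lipid droplets, reached 0.609 CPM in Control library 3.

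Counts of Fabp4 over Cfd were 0.915 in Control library 2 and 1.14 in Control library 3, but 38.8 in Control library 1 and 240.0 in combined library 2. Of 14 other adipocyte genes, 5 were highest in Control library 2 and 0 were called. Dgat2, an enzyme of triglyceride synthesis that is also active in skin, lay at 212, 630.3 and 572 CPM in active IKKβ, 249, 238 and 487 in Stat3 loss, 519.7, 174 and 523 in combined and 269.7, 259 and 701 in Control libraries. It was highest in Control library 3, as was Krt4. Pnpla2, a triglyceride lipase, spanned only 36.9 to 58.8 CPM and Agpat2, an enzyme of phosphatidic acid synthesis, 18.6 to 31.5 CPM.

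Among Schwann cell genes Mbp varied least between libraries and Ngfr 3.2-fold, while Sox10 and S100b varied much more. Sox10 (chr15:79154908-79165240, minus strand), the transcription factor of the glial lineage, lay at 3.35, 0.242 and 1.33 CPM in the active IKKβ libraries, 0.676, 0.264 and 0.654 in those of Stat3 loss, 0.1, 0.464 and 0.262 in the combined ones and 0.671, 1.62 and 15.8 in Control. S100b (chr10:76253853-76261159, plus strand), a calcium-binding protein of glia, lay at 1.37, 0.145 and 0.774 CPM under active IKKβ, 0.721, 0.307 and 0.109 under Stat3 loss, 0.25, 0.464 and 0.419 under the combination and 0.615, 0.313 and 2.51 in Control. Control library 3 was the highest for both, at 15.8 CPM of Sox10 against at most 3.35 CPM in any other library. Mbp (chr18:82475146-82585637, plus strand), the myelin basic protein, lay at 107, 106 and 94.6 CPM in active IKKβ, 110.2, 117 and 133 in Stat3 loss, 103, 80.5 and 95.8 in combined and 106, 121 and 155 in Control libraries. Ngfr (chr11:95568818-95587735, minus strand), the low-affinity nerve growth factor receptor that basal keratinocytes of the oesophagus also carry, lay at 48.4, 49.4 and 35 CPM in the active IKKβ libraries, 48.4, 66.4 and 41.7 in those of Stat3 loss, 26.3, 36 and 23.6 in the combined ones and 38.4, 33 and 20.8 in Control. Mbp spanned 1.92-fold over 12 libraries, and Ngfr was lowest in the very library where Sox10 was highest.

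The ratio of Mbp to Sox10 counts spanned 9.78 to 1033. The class summed to 159.7, 156 and 132 CPM in active IKKβ, 160.0, 184 and 175 in Stat3 loss, 130.0, 117 and 120.1 in combined and 146, 155 and 194 in Control libraries, almost all of it Mbp and Ngfr, so the sum does not show the level of Sox10. The Mbp gene is known to give products outside myelin as well. Of 14 other Schwann cell genes, 8 were highest in Control library 3 and 0 were called. By CPM the first 3 are L1cam, an adhesion molecule of axons, Erbb3, a neuregulin receptor, and Mal, a membrane protein of myelin, with 92.3 to 134, 41.9 to 109 and 3.8 to 203 CPM. Mal was highest in Stat3 loss library 3, Erbb3 in combined library 3 and L1cam in combined library 1, and epithelia are known to express Mal and Erbb3 too. Melanocytes are known to express Sox10 as well. The melanocyte genes Mlana and Tyr had 0 counts in all 12 libraries and Pmel stayed between 0.876 and 3.02 CPM. Of the enteric neuron genes Ret, a receptor for glial cell line-derived growth factors, was the highest by CPM, at 1.17 to 2.41 CPM.

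**Figure D3:**
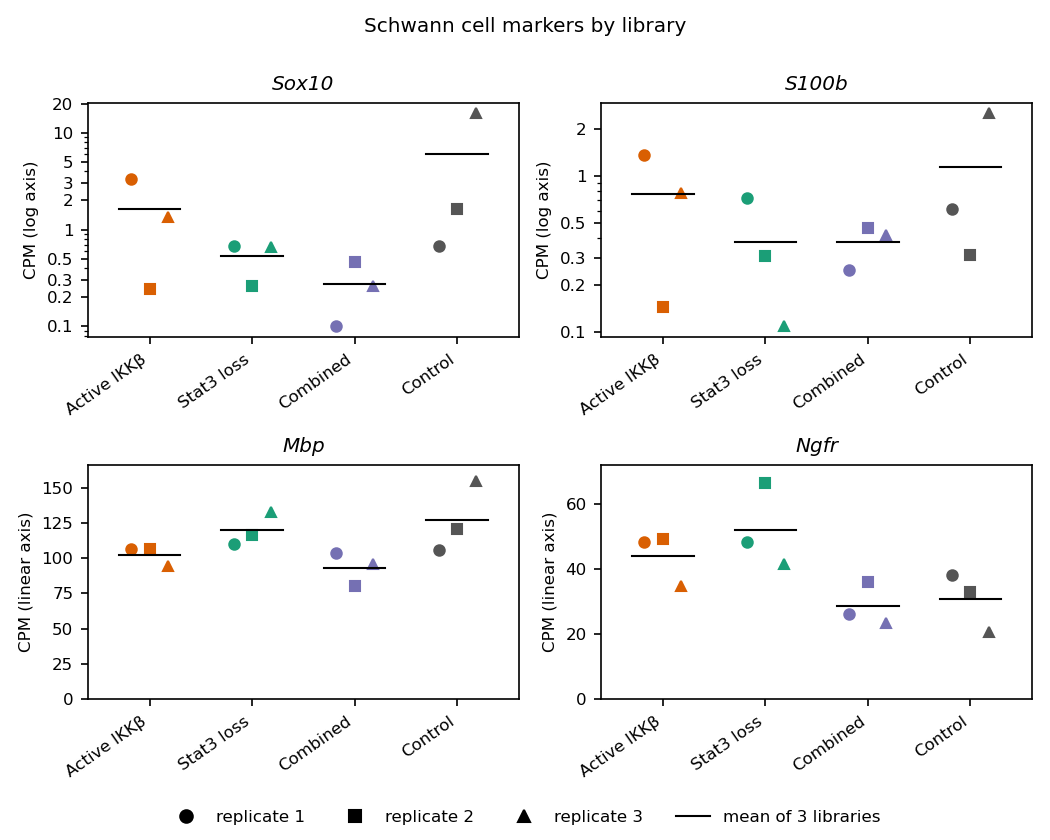
Levels in CPM of Sox10 and S100b (log axes) and of Mbp and Ngfr (linear axes) by library, for active IKKβ, Stat3 loss, combined and Control groups; marker shape gives the replicate and bars the mean of 3. Control library 3 stands far above the rest for Sox10, at 15.8 CPM, but is the lowest for Ngfr.

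The comparison of active IKKβ with Control asks whether the active kinase in the epithelium comes with other amounts of these transcripts. For every one of the 36 tested genes the active IKKβ and Control libraries overlapped, while 17.6% of all tested genes did not overlap. The median log2 fold change was above 0 for endothelial genes and below 0 for adipocyte genes, and each turned in sign without 1 library. By edgeR's quasi-likelihood test, adjusted over all 14134 tested genes, 0 of 36 tested genes were called, against 0.955% of all genes. At an unadjusted p below 0.05, edgeR found 1 of 36, Sparc, against 13% of all genes, and DESeq2 called 0, against 2.79% of all genes. Prox1, which is not among the 36, had 12 counts with active IKKβ and 2 in Control, a ratio of 5.83 (exact 95% interval 1.3 to 53.6, counting error only), and its groups did not overlap. The median log2 fold change was −0.08, with 15 genes above 0 and 21 below, beside 0.00 over all genes. That median was −0.57 without active IKKβ library 3, 0.15 without library 1 and 0.20 without Control library 2. All 9 tested endothelial genes lay above 0, with a median of 0.42, and Vwf was at 1.08 ± 0.49 (SE; edgeR adjusted p = 0.386). Without active IKKβ library 3 that endothelial median was −0.20 with 2 of 9 above 0, against 0.84 without library 1, and the smooth muscle median was −1.0 in place of −0.08. Without Control library 2 the adipocyte median was 0.19 in place of −1.75, and the fibroblast median 0.20 in place of −0.23. Beside these, all 7 tested leukocyte genes lay above 0, at a median of 1.52, with 0 called by edgeR and 6 at an unadjusted p below 0.05. Their sum was 367, 114 and 134 CPM with active IKKβ and 38.1, 91.5 and 54.3 CPM in Control. Lyz2, the macrophage lysozyme, led it with 268 CPM in active IKKβ library 1. Csf1r, the macrophage growth factor receptor, lay at 34.9, 40.7 and 46.4 CPM with active IKKβ and at 8.44, 18.4 and 12.4 CPM in Control, without overlap, as did Laptm5, a lysosomal protein of leukocytes, at 26.8, 24.9 and 23 CPM and at 6.2, 12.5 and 8.46 CPM. What part leukocytes have in the values above was not tested.

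The comparison of Stat3 loss with Control asks the same of the loss of Stat3. In every Stat3 loss library 5 of 6 smooth muscle genes and 5 of 9 tested endothelial genes lay below every Control library, as did 6.09% of all tested genes, and Ngfr lay above. By edgeR 0 of 36 tested genes were called, as were 0% of all genes. At an unadjusted p below 0.05, edgeR found 10 of 36 against 7.5% of all genes. DESeq2 called 1, Fabp4, against 0.649% of all genes, at a log2 fold change of −2.17 (DESeq2 adjusted p = 0.0277). By edgeR without Control library 2, Fabp4 was at −0.98, and the smallest edgeR adjusted p of any member was 0.975. These values of Fabp4 differ in method as well as in libraries. The median log2 fold change was −0.73, with 32 genes below 0 and 4 above, beside −0.02 over all genes. The groups did not overlap for 12 of 36 genes, against 13.1% of all tested genes. Of these 11 were lower with Stat3 loss, namely Acta2, Tagln, Cnn1, Des, Mylk, Pecam1, Kdr, Tie1, Emcn, Esam and Fabp4, and Ngfr was higher, as were 6.96% of all tested genes. Genes of 1 class share their libraries, so these are not independent counts. Acta2 averaged 294 ± 96.5 CPM with Stat3 loss and 539 ± 99.3 CPM in Control (SD, n = 3 each), a log2 fold change of −0.87 ± 0.44 (SE; edgeR adjusted p = 0.704; exact permutation p = 0.1, the smallest that 3 against 3 allows). Kdr averaged 1.02 ± 0.286 CPM with Stat3 loss and 3.05 ± 1.06 CPM in Control, at −1.58 ± 0.59 (edgeR adjusted p = 0.579). Ngfr averaged 52.2 ± 12.8 and 30.7 ± 9.04 CPM in the same groups, at 0.77 ± 0.26 (edgeR adjusted p = 0.515). All 6 smooth muscle genes lay below 0, with a median of −0.94, as did 11 of 12 other smooth muscle genes at −0.80. The 9 tested endothelial genes had a median of −0.83 with 8 below 0, and 13 of 15 other endothelial genes lay below 0 at −0.82. Beside these, 11 of 12 skeletal muscle genes lay above 0 at a median of 2.74 and 6 of 8 basal keratinocyte genes at 0.32, with 0 called by edgeR, and their part was not tested. Fibroblast genes had a median of −0.24, which was 0.12 without Control library 2 and −0.65 without Stat3 loss library 1. Schwann cell genes had a median of −0.84, which was −0.09 without Control library 3.

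The adipocyte genes other than Fabp4 had the lowest log2 fold changes of the 36 in this comparison, and their Control levels rest on libraries 2 and 3. Over the group, Stat3 loss held 3 counts of Adipoq and Control 274, so scaled counts in Control were 91.4 times those of Stat3 loss (exact 95% interval 30.9 to 446, counting error only). For Retn, Stat3 loss held 1 count and Control 147, a ratio of 147 (26 to 5847). Without Control library 2 these ratios were 30.6 (10 to 152) for Adipoq and 35.9 (5.87 to 1472) for Retn. Control library 1 held 0 counts of both, so the groups overlapped. Plin1, which was not tested, had 2 counts with Stat3 loss and 26 in Control, a ratio of Control to Stat3 loss of 13 (3.26 to 113).

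With both changes, 4 of 6 smooth muscle genes, 2 of 12 fibroblast genes, 2 of 4 Schwann cell genes and 1 of 9 tested endothelial genes lay in every combined library below every Control library, as did 7.85% of all tested genes. By edgeR the combined group against Control gave 0 of 36 called, against 0.884% of all genes. At an unadjusted p below 0.05, edgeR found 13 of 36, against 11.5% of all genes. DESeq2 called 3, against 2.73% of all genes, namely Cfd at −7.53 (DESeq2 adjusted p = 0.0015), Sox10 at −4.48 (DESeq2 adjusted p = 0.00306) and Sparc at −1.41 (DESeq2 adjusted p = 0.0185). By edgeR the same genes were at −7.44 ± 1.86, −4.46 ± 1.28 and −1.41 ± 0.40 (SE; edgeR adjusted p = 0.116, 0.174 and 0.165). Without Control library 1, Cfd was called by edgeR as well, at −8.02 (edgeR adjusted p = 0.0476), against 0.382% of all genes. That library, at 0.224 CPM of Cfd, is the Control library that overlaps the combined ones. Without Control library 2, the highest for Cfd at 70.0 CPM, 0 members were called, and their smallest edgeR adjusted p was 0.253. Without Control library 3, Sox10 was at −2.05 (edgeR adjusted p = 0.392). The median over the 36 genes was −0.68, with 34 below 0 and 2 above, beside 0.00 over all genes. The groups did not overlap for 9 genes, against 15% of all tested genes. All 9 were lower in the combined group, against 7.85% of all tested genes. They were Pdgfrb, Sparc, Emcn, Mbp, Sox10, Acta2, Tagln, Cnn1 and Des.

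By class, all 12 fibroblast genes lay below 0 in the combined group, with a median of −0.90, and the median was −1.37 without combined library 2 and −0.65, with 10 below 0, without Control library 2. All 18 other fibroblast genes lay below 0 as well, at a median of −1.09, with 0 called. Sparc averaged 191 ± 69.5 CPM in the combined group and 506 ± 185 CPM in Control (SD, n = 3 each). Col1a1 averaged 138 ± 29.2 and 344 ± 198 CPM, a log2 fold change of −1.32 ± 0.52 (edgeR adjusted p = 0.348), and its groups overlapped through Control library 1. All 6 smooth muscle genes lay below 0, with a median of −0.64, and Des was lowest at −1.0 ± 0.43 (edgeR adjusted p = 0.398). The 9 tested endothelial genes had a median of −0.36 with 7 below 0, which was −0.04 without combined library 1 and −0.87 without library 2. Sox10 averaged 0.275 ± 0.183 CPM in the combined group and 6.03 ± 8.48 CPM in Control, where 1 library gave most of the level. Mbp averaged 93.2 ± 11.6 and 127 ± 24.9 CPM, at −0.45 ± 0.15 (edgeR adjusted p = 0.256). For Retn the combined group held 0 counts and Control 147, at least 43.6-fold lower against a floor of 3 counts over the group, and at least 10.6-fold lower without Control library 2, which held 122 of the 147. For Cidec it held 1 count and Control 207, a ratio of Control to combined of 184 (exact 95% interval 32.7 to 7311). Control library 2 held 158 of the 207, and without it that ratio was 62.5 (10.7 to 2519). With Retn at the floor of 3 counts, the median of the 5 tested adipocyte genes was −5.88 in place of −7.15. That of all 36 genes was again −0.68.

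**Figure D4:**
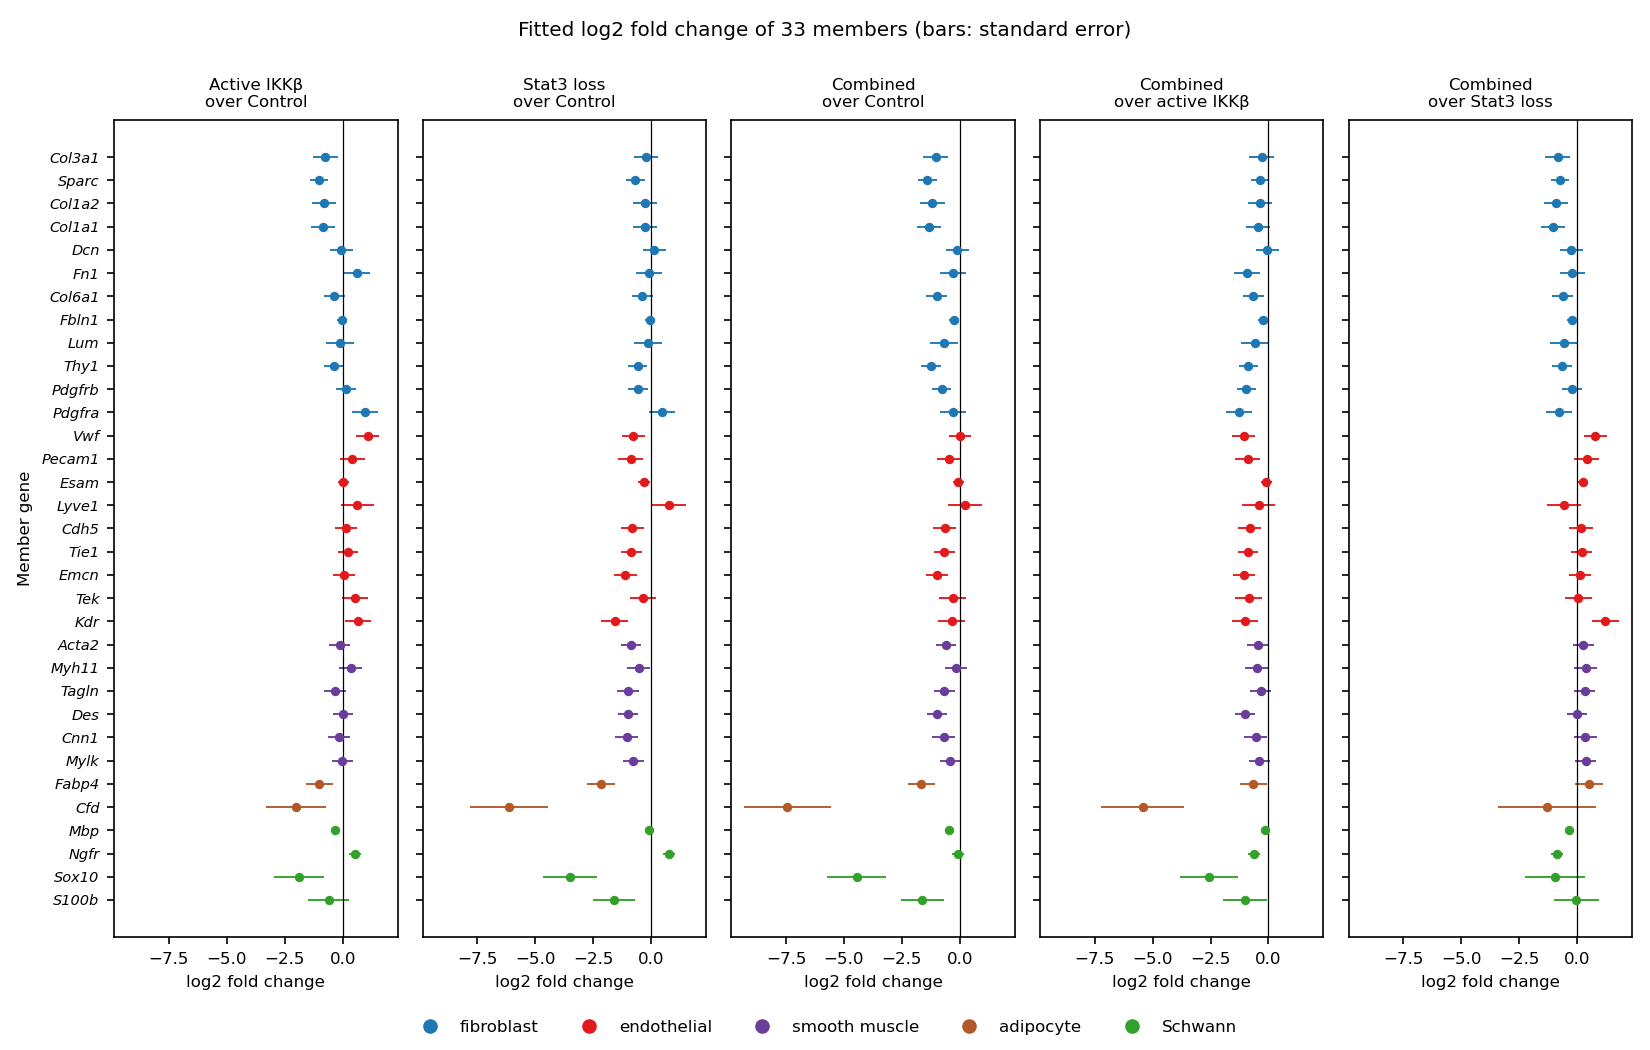
Fitted log2 fold changes with standard errors of 33 genes in 5 comparisons, coloured by class, with Adipoq, Retn and Cidec left out because their fitted values rest on groups with almost no counts. For the combined group over active IKKβ every gene lies below 0, with a median over all 36 tested of −0.73, a median that was −0.20 without active IKKβ library 3.

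In the combined group against active IKKβ, which differ by Stat3 loss with Cre in both, 0 of 36 genes were called by edgeR, as were 0% of all genes, and DESeq2 called 0, against 0.785% of all genes. At an unadjusted p below 0.05, edgeR found 8 of 36 against 9.88% of all genes. All 36 lay below 0, with a median of −0.73, but without active IKKβ library 3 this held for 26 of 37 tested genes with a median of −0.20. In that case the smooth muscle median was 0.52, in place of −0.49. The groups did not overlap for 4 genes, Thy1, Cfd, Retn and Cidec, against 14.7% of all tested genes. All 4 were lower in the combined group, against 7.53% of all tested genes. Cfd averaged 0.154 ± 0.17 CPM in the combined group and 7.1 ± 5.09 CPM with active IKKβ (SD, n = 3 each), at −5.43 ± 1.81 (edgeR adjusted p = 0.445). Thy1 averaged 7.6 ± 2.61 and 13.9 ± 1.8 CPM, at −0.87 ± 0.42 (edgeR adjusted p = 0.531). Retn had 0 counts in the combined group and 37 with active IKKβ, at least 10.7-fold lower against the same floor and at least 5.13-fold lower without active IKKβ library 1. Beside these, all 12 skeletal muscle genes lay below 0 at a median of −2.22 and all 7 tested leukocyte genes at −1.43, with 0 called by edgeR, and their part was not tested.

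In the combined group against Stat3 loss, which differ by active IKKβ, 0 of 36 genes were called by edgeR, against 0.46% of all genes, and DESeq2 called 0, against 1.84%. At an unadjusted p below 0.05, edgeR found 2 of 36, Mbp and Ngfr, against 8.96% of all genes. The median was −0.21, with 16 genes above 0 and 20 below, beside 0.01 over all genes. It was 0 without Stat3 loss library 3, 0 without both libraries rich in gastric transcripts, and 0.14, with 21 above 0 and 16 below, without the 4 female libraries, an alternative chosen after seeing the data. All 12 fibroblast genes lay below 0, with a median of −0.64, while all 6 smooth muscle genes lay above 0, with a median of 0.35. Without Stat3 loss library 1 the fibroblast median was −0.21, and without combined library 2 the smooth muscle median was 0.09. The groups did not overlap for 3 genes, Col1a1, Mbp and Ngfr, against 12.9% of all tested genes. All 3 were lower in the combined group, against 6.87% of all tested genes. Ngfr averaged 28.6 ± 6.51 CPM in the combined group and 52.2 ± 12.8 CPM with Stat3 loss (SD, n = 3 each), at −0.87 ± 0.26 (edgeR adjusted p = 0.274). That fit is unpaired, and with a replicate block the edgeR adjusted p was 0.0543. Beside Ngfr, 7 of 8 basal keratinocyte genes lay below 0 at a median of −0.53, with 0 called, and their part was not tested.

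The interaction asks whether Stat3 loss moved a gene differently with active IKKβ than without it. By edgeR 0 of 36 genes were called, as were 0% of all genes, and DESeq2 called 0 of them, against 0.0271% of all genes. At an unadjusted p below 0.05, edgeR found 1, Ngfr, against 4.66% of all genes. Ngfr stood at −1.39 ± 0.37 on the log2 scale (edgeR adjusted p = 1). Its level was 28.6 ± 6.51 CPM in the combined group, beside 44.2 ± 8.03 CPM with active IKKβ, 52.2 ± 12.8 CPM with Stat3 loss and 30.7 ± 9.04 CPM in Control. The median interaction was −0.01, with 17 genes above 0 and 19 below.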

How the data were processed

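RNA was sequenced from 12 libraries, and the authors deposited raw read counts per gene symbol, 1 file per library. Per the submitters' processing notes, cutadapt 1.13, STAR, HTSeq 0.6.1p1 and DESeq2 were used with mm10. Strand is not given in the sources used here, so overlapping antisense genes and near-identical copies may share counts.

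Counts were fitted with edgeR 4.0.16 (R 4.3.3; limma 3.58.1): filterByExpr kept 14134 of 23337 symbols, TMM scaled library totals, and 1 robust quasi-likelihood model covered all 4 groups. Genes were called at a Benjamini-Hochberg adjusted p below 0.05 over all tested genes. Log2 CPM used a prior count of 2. Single genes were also compared by exact permutation, two-sided, where 3 against 3 allows no p below 0.1. Floors are 3 counts over a group and leave out the counting error of the other group. Intervals cover counting error only. Alternatives were DESeq2 1.42.0, other scalings and filters, a fit of 2 groups, a replicate block and left-out libraries. Deviations of same-numbered libraries correlated above 0.1 in all 3 pairs of combined with Stat3 loss (0.121 to 0.259). They did not in all 3 for the other 5 pairs of groups. The main fit held no block, so every comparison in it is unpaired, and the replicate block is an alternative only. On simulated data for combined against Control, the fit called 28.4% of genes changed 2-fold, 76.1% of those changed 4-fold and 90.8% of those changed 8-fold. It made 6 false calls over 13975 tested genes. The changed genes were drawn from all tested genes, and each gene was simulated independently. Members vary more between libraries, by a median of 5.17-fold against 1.93-fold over all tested genes with counts in every library. Recovery for genes that vary as members do was not tested. A member that was not called may therefore still have changed, also by more than 2-fold. No libraries of a group agreed within sampling noise (lowest chi-square over its degrees of freedom 26.1).

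Members and lists were chosen with earlier results of these data known. Per class, the 2 to 4 most abundant members and every called one are given by library, and of other lists the 3 most abundant genes and any called. Exon lengths and positions are from GENCODE M21 on mm10, promoters from RefSeq on GRCm38.p6.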

Additional observations from a re-analysis of the deposited data

How the results depend on the processing

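Of 131 counts of members called under 22 alternatives, 128 were 0, and 2 further alternatives concerned class levels. DESeq2 called 1 member for Stat3 loss and 3 for the combined group against Control, and leaving out 1 library each gave 0 to 1 for the combined group against Control (1 without Control replicate 1). Of 4689 values of single members, 274 had the other sign and 0 of those were called. A fit with the replicate block called 0 members in every comparison and so changed no call by edgeR. For combined against Stat3 loss, where same-numbered libraries deviated together, the smallest adjusted p of a member was 0.0543 with the block, for Ngfr at −0.86, in place of 0.274. In the other comparisons same-numbered libraries also share a number and sex, but not every pair correlated above 0.1. For Control with combined the correlations were 0.0894 to 0.454. Adipocyte genes in their highest library stood at 13.5 times the median library by sums and 18.3 times by mean log2 CPM, both in Control library 2. Schwann cell genes stood at 1.24 times by sums, 1.22 times by library totals, with Stat3 loss library 2 highest, and 3.02 times by mean log2 CPM, with Control library 3 highest. The cause was not tested.

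Over all genes, edgeR called 135 for active IKKβ, 0 for Stat3 loss and 125 for the combined group against Control, and 65 for combined against Stat3 loss. DESeq2 called 424, 101, 434 and 286, library totals 66, 0, 53 and 29, and fits of 2 groups alone 61, 0, 14 and 16. Leaving out 1 library each gave 42 to 145, 0 to 1, 43 to 147 and 20 to 81. For combined against active IKKβ edgeR called 0 and DESeq2 125, and for the interaction 0 and 5. Without the 4 female libraries the combined group's member median against Control was −0.64 in place of −0.68. Without both libraries rich in gastric transcripts, the active IKKβ median against Control was 0.16 in place of −0.08. Depth limits Prox1, Plin1 and Lep, which fell under the count filter and have counting intervals alone. Ratios of group counts without 1 library, given beside each result, were added after seeing the data.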

Other observations

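Skeletal muscle genes, which mark the outer muscle coat, differed in amount between libraries. Myh4 and Myh8, from a list of 12, also differed in their proportion to each other, and they were chosen after their values were seen. Myh4, a fast adult myosin heavy chain, lay at 36.2, 157 and 1.16 CPM in active IKKβ libraries and at 0.586, 18.8 and 259 CPM in Stat3 loss libraries. Myh8, the perinatal myosin heavy chain, lay at 179, 1.74 and 9.67 CPM in active IKKβ libraries and at 3.6, 113 and 117 CPM in Stat3 loss libraries. Among these libraries active IKKβ library 1 was the highest for Myh8, while active IKKβ library 2 held Myh4 with almost no Myh8. Control and combined libraries are not given here.

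In the library that led the adipocyte markers, Control library 2, 3 other genes of fat, also chosen after their values were seen, were at their highest too. Lpl, the lipase of capillary walls, stood there at 24.5 CPM and Car3, a carbonic anhydrase of fat and muscle, at 39.9 CPM. Pck1, an enzyme of glyceride and glucose synthesis, stood at 4.6 CPM and had 0 counts in all 3 Stat3 loss libraries, all 3 combined libraries and Control library 1. Of the 14 other adipocyte genes only 5 were highest in Control library 2. The sum of the 14, most of it Dgat2, was 466 CPM in that library and highest in Control library 3, at 889 CPM. In Control library 3, which was looked at in the same way, Scn7a, a sodium channel of non-myelinating Schwann cells, and Cdh19, a cadherin of the Schwann cell lineage, stood at 30.3 and 7.77 CPM, against at most 7.43 and 1.16 CPM in the other 11 libraries. Of the 14 other Schwann cell genes 8 were highest there, while the rest, Mal, Erbb3 and L1cam among them, were highest elsewhere.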
